A study of Mus musculus with 11 samples.

Results

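Trib3 and 9 other genes of the ATF4 stress response (Atf4, Ddit3, Chac1, Asns, Sesn2, Atf3, Atf5, Psat1 and Phgdh) were read out of the 36529 genes counted by RNA-sequencing in BV2 cells, a mouse microglial line immortalized by transformation. The genes were listed by name with earlier results of these data known, and Trib3 was put first for its pattern, high with nApoE4 and not with nApoE3. Its values are therefore described with no test. The 11 samples fall into 4 groups. In the first, 3 samples received nApoE4 at 25 μg/ml for 5 h, beside 3 untreated samples titled ControlA and taken as its controls. The nApoE4 fragment is the amino-terminal part of human apolipoprotein E4 holding residues 1 to 151. In the second, 2 samples received the matching nApoE3 fragment at the same dose and time, beside 3 untreated samples titled ControlB and taken as its controls. Both fragments carried a His tag and differ by a single amino acid, and all groups grew in RPMI 1640 medium with fetal bovine serum, penicillin, streptomycin and added nonessential amino acids, among them asparagine and serine. For the untreated cells the labels name a PBS vehicle and the study's methods conditioned medium. A fragment and its own controls are called an experiment here, and because each fragment had its own, fragment and experiment cannot be told apart. The study's methods call the averaged transcriptome measurements independent without saying whether they were separate cultures, and where they were not, a p-value measures only the technical spread between these samples.

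The integrated stress response is a route by which cells under amino acid shortage, unfolded protein in the endoplasmic reticulum, oxidative stress or viral RNA slow protein synthesis. Kinases that sense these states phosphorylate the initiation factor eIF2, most translation falls, and the mRNA of the transcription factor ATF4 is translated better. ATF4 then pairs with C/EBP and other bZIP proteins at genes for amino acid synthesis, amino acid import and tRNA charging, and at Ddit3, which encodes CHOP. TRIB3, a pseudokinase of the Tribbles family, is a target of ATF4 and CHOP that binds both and restrains them. ATF4 protein is controlled largely at translation, and the files hold RNA alone.

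Members with a short sequence that ATF4 and C/EBP proteins can bind together are shown first, because these genes share a regulator by name. The letters TGATGNAA of the C/EBP-ATF response element were searched on both strands in RefSeq windows (GRCm38.p6) from 250 bases before to 50 bases after a gene's start. They occurred in 4 of the 12 windows of the members, those of 4 of the 10 genes, against 3.97% of 32851 windows of the same length. All 10 members matched the table, with 12 windows between them. Each run below is read 5′ to 3′ on the gene's strand, with the matching letters in capitals.
Trib3, chr2:152344028-152344057, minus strand, bases 15 to 22 after the start: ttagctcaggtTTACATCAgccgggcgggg
Chac1, chr2:119351038-119351067, plus strand, bases -193 to -186: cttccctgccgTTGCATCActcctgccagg
Atf3, chr1:191183425-191183454, minus strand, bases -110 to -103: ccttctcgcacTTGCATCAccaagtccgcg
Asns, chr6:7693214-7693243, minus strand, bases -23 to -16: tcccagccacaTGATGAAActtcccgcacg
In Trib3, Chac1 and Atf3 the letters lie on the opposite strand, so the element appears reversed, while in Asns it is read forward. The 250 bases before the start of Trib3 (chr2:152344061-152344310, minus strand) held no match to any of the motifs searched and are given for context.
Trib3 upstream: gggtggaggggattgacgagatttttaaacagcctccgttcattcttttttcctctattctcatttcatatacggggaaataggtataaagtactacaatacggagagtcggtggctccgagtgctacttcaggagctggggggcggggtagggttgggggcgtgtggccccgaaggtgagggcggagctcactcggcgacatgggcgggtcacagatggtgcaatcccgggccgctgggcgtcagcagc
Of the other motifs, the AP-1 letters TGANTCA matched in Ddit3 (7.81% of all windows) and an NF-kB site in Atf3, Atf4 and Atf5 (20.7%). The cyclic AMP response element TGACGTCA (1.79%) and the ER stress response element (0.119%) matched in no member window. A match is a run of letters and not a measured binding site, and the absence of a match concerns these windows only.

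The samples held 39732710 to 44162511 counts on genes in the nApoE4 experiment and 55809688 to 69768666 in the nApoE3 experiment. Levels are given as CPM, counts scaled to library size with the TMM method over the 11 samples. Replicates of a group correlated at 0.992 to 0.996 across genes on log2 CPM. All 10 members passed the filter on low counts in every comparison. The 8 microglia and macrophage markers summed to 3360 to 3720 CPM in the nApoE4 controls, 3640 to 3750 with nApoE4, 2360 to 2470 in the nApoE3 controls and 2860 to 2880 with nApoE3. Single markers moved apart: with nApoE4, Spi1 (log2 1.35) and Ptprc (0.95) rose and Itgam (-0.37), Tyrobp (-0.29) and Cd68 (-0.27) fell. With nApoE3 4 of the 7 tested rose and 3 fell. Over all tested genes, 28.6% rose and 28.6% fell with nApoE4, and 33.1% rose and 34.6% fell with nApoE3, by the test described below. Among the 8, Aif1 held few counts, 3 or fewer in each nApoE4 control and up to 10 elsewhere. Whether its reads were lost in mapping or counting was not tested. The 12 markers of astrocytes, neurons, oligodendrocytes and fibroblasts summed to 10.6 to 27.5 CPM in any sample. Of these, Aqp4, Mog and Col1a2 had 3 counts or fewer throughout. The part of these marker levels in the results was not tested. The controls of the nApoE4 and nApoE3 experiments differed in many genes, so each fragment was compared with its own.

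Trib3 (chromosome 2, 152337425 to 152344060, minus strand, GRCm38.p6) stood at 68.9, 78.6 and 61.3 CPM in the nApoE4 controls and at 277, 272 and 284 CPM with nApoE4. The means were 69.6 ± 8.64 CPM (SD, n = 3) and 278 ± 5.88 CPM (SD, n = 3), a ratio of 3.99, with no overlap between the groups. In the nApoE3 controls it stood at 44.3, 41.6 and 46.8 CPM and with nApoE3 at 48.7 and 46.4 CPM. These means were 44.2 ± 2.59 (SD, n = 3) and 47.6 ± 1.66 CPM (SD, n = 2), a ratio of 1.07, and the ranges overlapped. The order of the groups was thus nApoE4, its controls, nApoE3 and the nApoE3 controls, in which the last 2 neighbours did not differ beyond their spread. The fitted log2 difference was 2.00 with nApoE4 and 0.10 with nApoE3. The small nApoE3 value turned to -0.03 when total counts alone set the scale, under which the median of all genes moved to -0.13. RNA was pooled over cells, so more cells with the transcript and more RNA per cell cannot be told apart. In raw reads, 2863 to 3524 counts in the nApoE4 controls stood against 11274 to 11887 with nApoE4, and 2578 to 3125 in the nApoE3 controls against 2619 and 2836 with nApoE3.

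**Figure D1:**
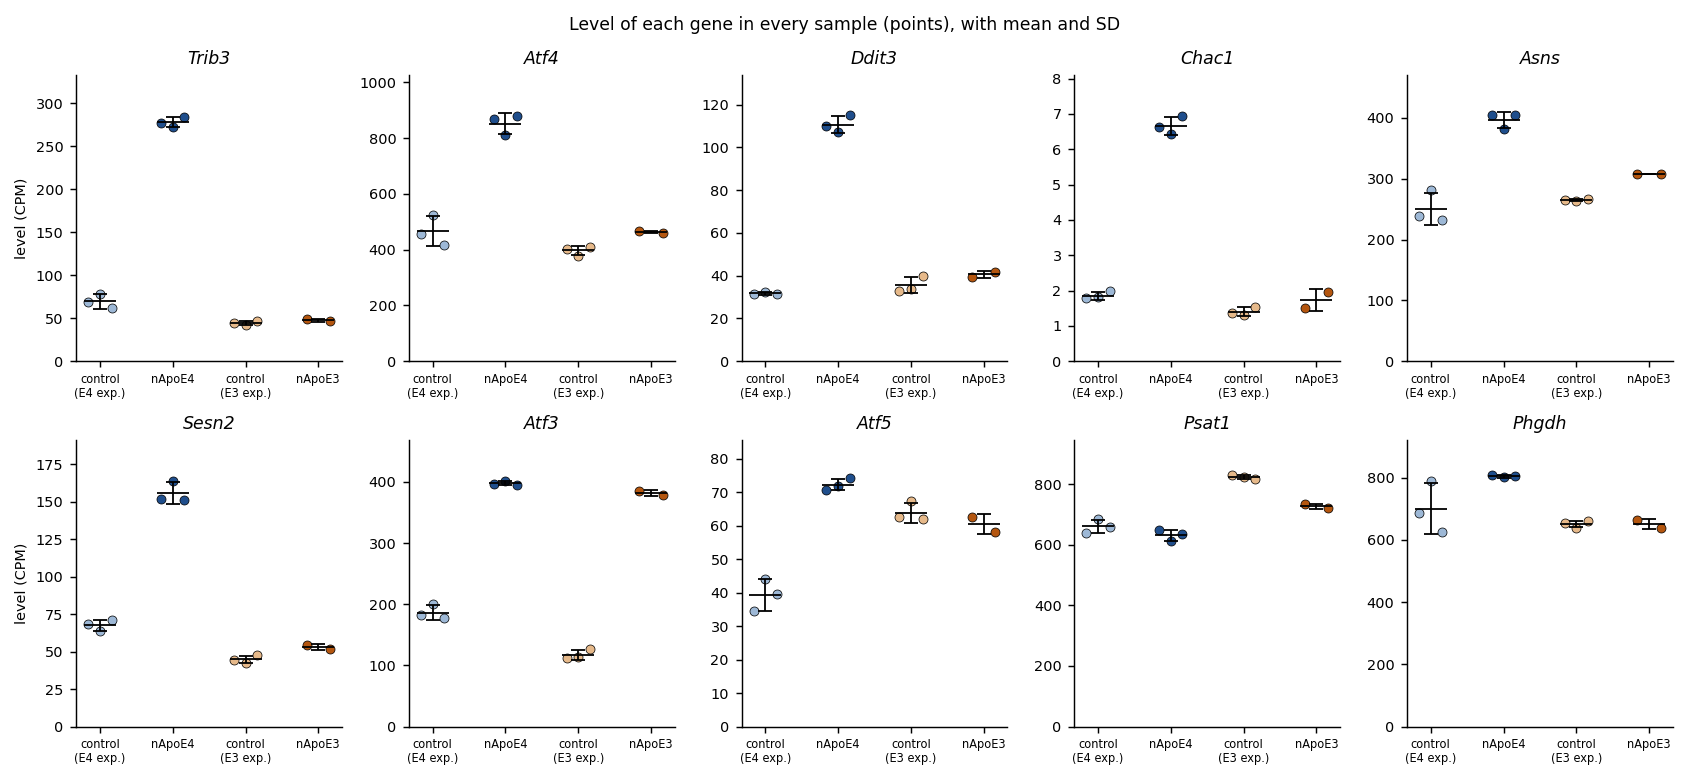
Level in CPM (vertical axes, linear and from 0) of each of the 10 genes in every sample of the 4 groups. Points are samples and bars the mean with the SD. For Trib3 the nApoE4 samples lie at 272 to 284 CPM and all others at 41.6 to 78.6 CPM, and for Atf3 both treated groups lie above their controls.

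Of the 9 members besides Trib3, 7 rose with nApoE4, none fell and 2 did not pass the test, which was edgeR's quasi-likelihood test with a Benjamini-Hochberg adjusted p under 0.05 over 14240 genes. Over all those genes 28.6% were called higher and 28.6% lower, and their median log2 difference was 0.00 against 0.88 for the 9 members. With nApoE3, 5 of the 9 rose, 1 fell and 3 did not pass, with a median of 0.20. Here 33.1% of 14817 genes were called higher and 34.6% lower. The calls that were higher made up 49.9% with nApoE4 and 48.9% with nApoE3, and 39.9% and 34.6% on total counts alone. The difference between the responses was tested with an interaction term fitted to all 11 samples. It was higher for nApoE4 in 6 of the 9 members, lower in 1 and did not pass in 2, against 14.4% higher and 13.9% lower of 15287 genes. The list was drawn up with such results in view, so these counts describe it. The variation between replicates was smaller in the nApoE3 experiment, with a biological coefficient of variation of 0.0262 against 0.0838, so smaller differences could pass the test there.

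**Figure D2:**
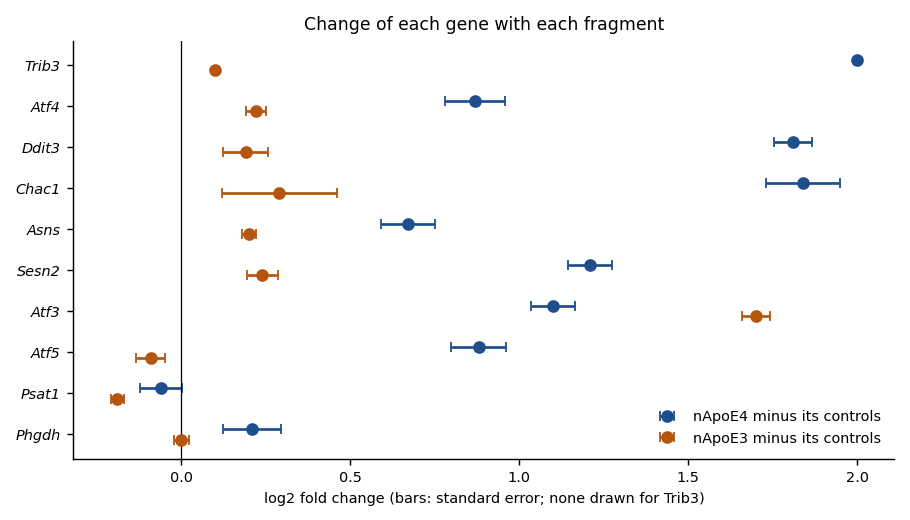
Fitted log2 fold change of each gene (horizontal axis) with nApoE4 (blue) and nApoE3 (orange), each against its own controls. Bars are standard errors, and none is drawn for Trib3, which was selected on these values. From Atf4 to Sesn2 and for Atf5 the nApoE4 point lies to the right, and for Atf3 the nApoE3 point does. On total counts alone the nApoE3 value of Trib3 is -0.03.

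Among the transcription factors, Atf4 (chromosome 15, 80255184 to 80257545, plus strand), the central activator of the route, stood at 456, 526 and 418 CPM in the nApoE4 controls and at 867, 810 and 878 CPM with nApoE4. The groups did not overlap, and the rise was 1.83-fold (log2 0.87, SE 0.089, edgeR adjusted p = 2.34e-05). In the nApoE3 experiment its controls held 403, 379 and 410 CPM and the treated samples 467 and 460 CPM, again apart, for a rise of 1.16-fold (log2 0.22, SE 0.03, edgeR adjusted p = 3.64e-05). The rise was larger with nApoE4 by 0.65 on the log2 scale (SE 0.11, edgeR adjusted p = 0.000635).

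Ddit3 (chromosome 10, 127290793 to 127296291, plus strand) encodes CHOP, the partner of ATF4 linked to cell death in prolonged stress. It stood at 31.5, 32.4 and 31.3 CPM in the nApoE4 controls and at 110, 107 and 115 CPM with nApoE4, a rise of 3.5-fold (log2 1.81, SE 0.057, edgeR adjusted p = 6.91e-09). Its nApoE3 controls held 33.0, 34.0 and 39.8 CPM and the treated samples 39.6 and 41.8 CPM. Those groups overlapped, and the rise of 0.19 on the log2 scale (SE 0.066, edgeR adjusted p = 0.0223) was not called in 5 alternatives. Among these were leaving out nApoE3 control replicate 1 (adjusted p = 0.103), control replicate 2 (0.0698) or nApoE3 replicate 2 (0.14), and scaling by total counts alone, where it was 0.06 (0.435). The response was larger with nApoE4 by 1.61 (SE 0.098, edgeR adjusted p = 1.79e-07). The ends of Ddit3 overlap Mbd6 by 77 bases and Mars by 71 bases in the annotation, and the strand setting of the counting is not given in the sources used here. Mars itself rose by 0.30 with nApoE4, and Mbd6 did not pass.

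Atf3 (chromosome 1, 191170296 to 191183333, minus strand), a stress-inducible bZIP repressor that many signals besides ATF4 can induce, departed from this order. It stood at 182, 200 and 177 CPM in the nApoE4 controls and at 397, 402 and 395 CPM with nApoE4, a rise of 2.14-fold (log2 1.10, SE 0.065, edgeR adjusted p = 4.82e-07). In the nApoE3 experiment it went from 112, 113 and 126 CPM in the controls to 385 and 378 CPM, a rise of 3.24-fold (log2 1.70, SE 0.041, edgeR adjusted p = 2.90e-12). Treated levels of both fragments were close, at means of 398 ± 3.5 CPM (SD, n = 3) and 381 ± 4.95 CPM (SD, n = 2), while the nApoE3 controls were lower. The response was smaller with nApoE4, with a log2 difference of -0.61 (SE 0.084, edgeR adjusted p = 0.000156). No other member of the 9 tested had a smaller response with nApoE4.

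Atf5 (chromosome 7, 44812256 to 44816658, minus strand), a bZIP factor regulated like ATF4 and tied to mitochondrial stress, held 34.6, 44.0 and 39.5 CPM in the nApoE4 controls and 70.8, 71.9 and 74.2 CPM with nApoE4. The rise was 1.84-fold (log2 0.88, SE 0.082, edgeR adjusted p = 1.22e-05). In the nApoE3 experiment the controls held 62.5, 67.4 and 62.0 CPM and the treated samples 62.6 and 58.3 CPM. These overlapped, and the log2 difference of -0.09 (95% confidence interval -0.18 to 0.01, edgeR adjusted p = 0.0923) did not pass, though on total counts alone it was -0.22 (edgeR adjusted p = 0.000526) and without nApoE3 replicate 1 it was -0.14 (0.0345). The response was larger with nApoE4 by 0.96 (SE 0.11, edgeR adjusted p = 2.99e-05). Atf5 shares 571 bases with Nup62, which was not tested, and 289 bases with Gm21948, which did not pass with either fragment. To which of these genes reads on the shared bases were counted, if to any, cannot be told without the strand setting and overlap mode.

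Chac1 (chromosome 2, 119351242 to 119354326, plus strand), whose product degrades glutathione, was covered by few reads, at 76 to 93 counts in the nApoE4 controls and 267 to 284 counts with nApoE4. Its levels were 1.78, 1.81 and 1.99 CPM in those controls and 6.62, 6.42 and 6.93 CPM with nApoE4, a rise of 3.58-fold (log2 1.84, SE 0.11, edgeR adjusted p = 5.68e-07). The nApoE3 controls held 1.36, 1.32 and 1.54 CPM and the treated samples 1.51 and 1.95 CPM, which overlapped. That log2 difference was 0.29 (95% confidence interval -0.09 to 0.67, edgeR adjusted p = 0.163). The response was larger with nApoE4 by 1.54 (SE 0.19, edgeR adjusted p = 5.48e-05).

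Sesn2 (chromosome 4, 132492804 to 132510456, minus strand) encodes Sestrin2, a leucine sensor that restrains the growth kinase complex mTORC1. It stood at 68.5, 63.7 and 70.9 CPM in the nApoE4 controls and at 152, 164 and 151 CPM with nApoE4, a rise of 2.31-fold (log2 1.21, SE 0.066, edgeR adjusted p = 2.82e-07). The nApoE3 controls held 44.4, 42.5 and 47.6 CPM and the treated samples 54.7 and 51.6 CPM, a rise of 1.18-fold (log2 0.24, SE 0.046, edgeR adjusted p = 0.000569). In both experiments the groups were apart, and the nApoE4 response was larger by 0.96 (SE 0.087, edgeR adjusted p = 4.73e-06).

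The enzymes of amino acid synthesis were less alike. Asns (chromosome 6, 7675165 to 7693209, minus strand), asparagine synthetase, stood at 238, 281 and 232 CPM in the nApoE4 controls and at 404, 381 and 404 CPM with nApoE4, a rise of 1.59-fold (log2 0.67, SE 0.08, edgeR adjusted p = 7.28e-05). The nApoE3 controls held 265, 264 and 267 CPM and both treated samples 307 CPM, a rise of 1.15-fold (log2 0.20, SE 0.021, edgeR adjusted p = 2.41e-06). The difference of the responses was 0.45 (SE 0.094, edgeR adjusted p = 0.003). On total counts alone the nApoE3 rises of Atf4, Asns and Sesn2 were 0.09, 0.07 and 0.11 and still passed (edgeR adjusted p = 0.0179, 0.00693 and 0.0474).

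Phgdh and Psat1 encode the first enzymes of serine synthesis, in that order along the path. Phgdh (chromosome 3, 98313171 to 98339969, minus strand) held 687, 788 and 627 CPM in the nApoE4 controls and 810, 801 and 805 CPM with nApoE4. All treated samples lay above the controls, yet the log2 difference of 0.21 (95% confidence interval 0.01 to 0.40) did not pass (edgeR adjusted p = 0.0642). The control replicates spread widely, and without control replicate 2 the value was 0.29 (edgeR adjusted p = 0.000931). With nApoE3 it held 664 and 640 CPM against 653, 640 and 661 CPM in the controls, a log2 difference of 0.00 (95% confidence interval -0.05 to 0.04, edgeR adjusted p = 0.872), and on total counts alone -0.14 (7.01e-05). Its responses differed by 0.20 (95% confidence interval -0.02 to 0.41, edgeR adjusted p = 0.163).

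Psat1 (chromosome 19, 15905123 to 15925059, minus strand) held 641, 684 and 659 CPM in the nApoE4 controls and 648, 613 and 636 CPM with nApoE4, overlapping, for a log2 difference of -0.06 (95% confidence interval -0.20 to 0.08, edgeR adjusted p = 0.446). Its nApoE3 controls held 831, 824 and 818 CPM and the treated samples 734 and 721 CPM. It fell by 0.19 on the log2 scale (SE 0.019, edgeR adjusted p = 1.85e-06), the only member called lower with either fragment. The responses differed by 0.12 (95% confidence interval -0.02 to 0.25, edgeR adjusted p = 0.202). On total counts alone the nApoE4 value was -0.15 (edgeR adjusted p = 0.0277).

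The untreated cells of the 2 experiments also differed in these genes. Trib3 was lower in the nApoE3 controls than in the nApoE4 controls by a factor of 1.59 (log2 -0.67), with no overlap. These controls are part of the pattern it was chosen for, so no test is given. Of the other 9 members, Atf3 (log2 -0.68), Sesn2 (-0.61), Chac1 (-0.42) and Atf4 (-0.25) were lower and Atf5 (0.68) and Psat1 (0.30) higher, while Ddit3, Asns and Phgdh did not pass, against 34.4% higher and 34.9% lower of 14249 genes. The Atf4 value lost its call without control replicate 1 of the nApoE4 experiment (edgeR adjusted p = 0.0599) or without replicate 1, 2 or 3 of the nApoE3 controls (0.0761, 0.115 and 0.0559). Chac1 lost it without replicate 3 of the nApoE4 controls (0.0779) or replicate 1 or 2 of the nApoE3 controls (0.0773 and 0.0861). Conversely, Asns was called without replicate 2 of the nApoE4 controls (0.16, adjusted p = 0.000474), Ddit3 without replicate 1 of the nApoE3 controls (0.21, adjusted p = 0.0489) and Phgdh without replicate 3 of the nApoE4 controls (-0.20, adjusted p = 0.0231).

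Over the 11 samples, each gene's log2 CPM was set relative to the mean of the controls of its own experiment and correlated with that of Trib3 across 15287 genes, as a description. The samples share controls, treatments and depth, so the values rest mainly on the 3 nApoE4 samples standing apart. Ddit3 was the member most like Trib3 (r = 0.994, rank 9), followed by Chac1 (0.981, rank 55), Sesn2 (0.977, rank 83), Atf4 (0.977, rank 84), Atf5 (0.974, rank 96) and Asns (0.962, rank 178). Phgdh (0.839, rank 1345), Atf3 (0.471, rank 4866) and Psat1 (-0.143, rank 8491) were less like it. The 6 genes ahead of all others were none of the listed pathway. Metrnl, a secreted factor, reached r = 0.9972 and went from 37.9 ± 4.86 to 118 ± 2.41 CPM with nApoE4 (SD, n = 3 each). Phf10, a subunit of a chromatin remodelling complex, reached 0.9964 and went from 91.7 ± 3.39 to 166 ± 5.07 CPM. Siah2, a ubiquitin ligase, followed at 0.9963 with 24.3 ± 1.86 and 66.1 ± 0.951 CPM. Next were Sgk1, a growth factor-responsive kinase (0.9949), Snn (0.9948) and Mvd, an enzyme of sterol synthesis (0.9945). With nApoE3 the means of these 6 genes were 1.05 to 1.15 times those of the controls.

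**Figure D3:**
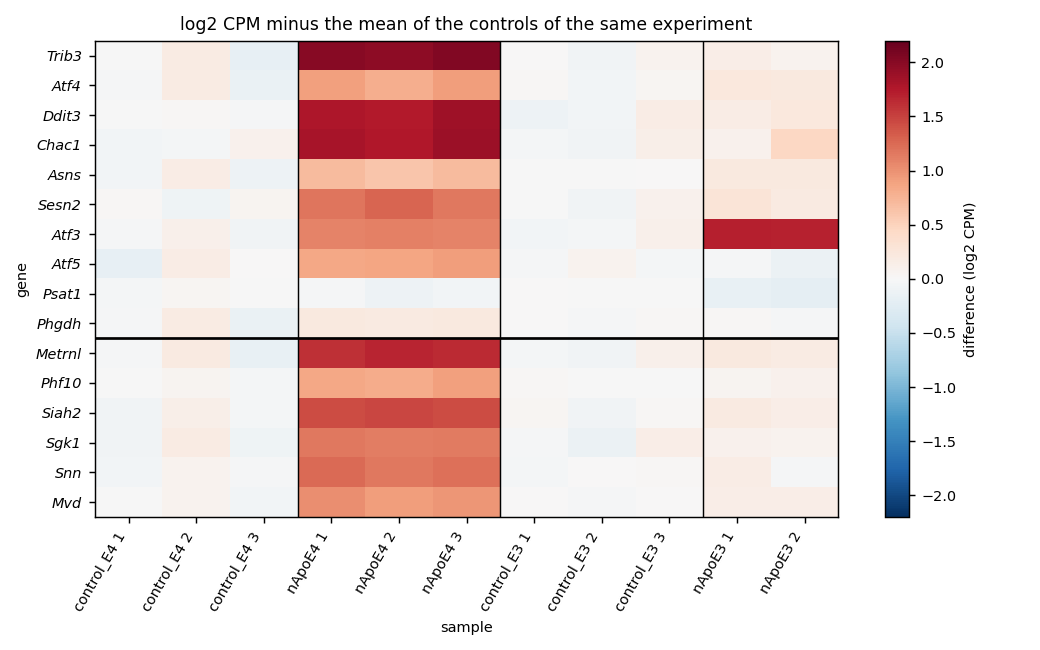
Log2 CPM minus the mean of the controls of the same experiment, coloured from blue (lower) to red (higher), for the 10 genes and, below the black line, the 6 genes most like Trib3 (rows) in the 11 samples (columns). The nApoE4 columns are reddest for Trib3, Ddit3 and Chac1, and less red for Sesn2, Atf4, Atf5 and the 6 lower genes. Atf3 is red with both fragments, and Psat1 stays pale.

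Wider parts of the pathway were taken from lists written with earlier results known, and are given by counts beside the shares of all genes above. Among 16 genes for a subunit of eIF2, its kinases and their regulators, its phosphatase subunits and the exchange factor eIF2B, 8 rose and 4 fell with nApoE4 (median log2 0.20) and 7 rose and 4 fell with nApoE3 (0.04), while the difference of the responses passed in 3. Ppp1r15a, encoding GADD34, which returns eIF2 to its active form, rose with both, from 39.7 ± 3.33 to 143 ± 2.81 CPM (log2 1.86, SE 0.07, edgeR adjusted p = 2.14e-08) and from 22.2 ± 1.69 to 74.4 ± 1.27 CPM (log2 1.74, SE 0.049, edgeR adjusted p = 1.20e-11). Its responses differed by 0.11 (95% confidence interval -0.10 to 0.32). Eif2ak2, the kinase PKR that senses double-stranded RNA, rose by 1.05 with nApoE4 and by 1.72 with nApoE3. Eif2ak3, the kinase PERK of the endoplasmic reticulum, fell by 1.05 and by 0.84 on the log2 scale.

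In amino acid synthesis, counted without Asns, Psat1 and Phgdh, 8 of 10 genes had responses that differed. Of the members left out of this list, Asns passed that test and Psat1 and Phgdh did not. Of 10 tested genes for serine, folate-linked and other amino acid synthesis besides Asns, Psat1 and Phgdh, 8 rose and 1 fell with nApoE4 (median log2 0.59), 2 rose and 5 fell with nApoE3 (-0.05), and 8 had a larger response with nApoE4, none a smaller. Cbs was not tested. Cth, which makes cysteine from cystathionine, rose from 8.06 ± 0.485 to 37.7 ± 3.64 CPM with nApoE4 (log2 2.23) and from 11.9 ± 0.299 to 34.2 ± 1.2 CPM with nApoE3 (1.52). Mthfd2, a mitochondrial folate enzyme and a known ATF4 target, rose by 1.27 and 0.50. Aldh1l2, another mitochondrial folate enzyme, rose by 0.91 with nApoE4 and fell by 0.29 with nApoE3, a difference of 1.19 (SE 0.094, edgeR adjusted p = 1.47e-06). Aldh18a1, of proline synthesis, rose by 0.38 with nApoE4 and fell by 0.43 with nApoE3.

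Of 20 cytosolic aminoacyl-tRNA synthetases, which load tRNA with amino acids, 14 rose and none fell with nApoE4 (median log2 0.45). With nApoE3 14 rose and 1 fell (0.14), and 11 responded more to nApoE4, none less. Aars went from 420 ± 14.3 to 828 ± 14.3 CPM with nApoE4 (log2 0.98) and from 658 ± 7.5 to 806 ± 3.34 CPM with nApoE3 (0.29), a difference of 0.69 (SE 0.062, edgeR adjusted p = 4.05e-06). Cars rose by 0.70 and 0.14, and Tars by 0.67 and 0.37, and for both the response to nApoE4 was the larger. Rars rose by 0.65 and 0.40, a difference of 0.24 (95% confidence interval 0.06 to 0.43) that did not pass (edgeR adjusted p = 0.0515).

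Of 9 amino acid transporters, 6 rose and 3 fell with nApoE4 (median log2 0.85), and 3 of the 8 tested rose and 4 fell with nApoE3 (-0.05). The response was larger with nApoE4 in 4 and smaller in none. Slc7a11, the cystine importer, rose with both fragments, from 22.0 ± 1.54 to 592 ± 29.9 CPM with nApoE4 (log2 4.76) and from 43.1 ± 0.938 to 1100 ± 96.8 CPM with nApoE3 (4.67), and the responses differed by 0.08 (95% confidence interval -0.13 to 0.28). Slc3a2, its partner chain, rose by 1.02 and 0.83. Slc6a9, a glycine transporter, rose from 35.1 ± 1.32 to 90.3 ± 2.3 CPM with nApoE4 and fell from 38.4 ± 1.67 to 32.7 ± 0.154 CPM with nApoE3, a log2 difference of 1.59 (SE 0.072, edgeR adjusted p = 1.58e-08). Slc1a4, a carrier of alanine and serine, rose by 1.10 with nApoE4 and fell by 0.42 with nApoE3, a difference of 1.51 (SE 0.073, edgeR adjusted p = 2.43e-08). Slc7a3, a carrier of arginine and lysine near the limit of detection, held 16, 17 and 18 counts in the nApoE4 controls and 7, 7 and 10 counts with nApoE4, a fall (log2 -0.96, edgeR adjusted p = 0.0211).

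Further targets of ATF4 and CHOP and their bZIP partners gave 9 rises and 1 fall among 13 tested genes with nApoE4 (median log2 0.33) and 7 rises and 5 falls with nApoE3 (0.13), and the response to nApoE4 was larger in 7 and smaller in 2. The 2 smaller ones were Ddit4 and Ero1l. Ddit4 fell from 66.7 ± 4.74 to 30.3 ± 1.51 CPM with nApoE4 and from 33.2 ± 2.7 to 21.8 ± 2.83 CPM with nApoE3. Ero1l stood at 170 ± 5.98 and 172 ± 2.72 CPM in the nApoE4 experiment and rose from 87.8 ± 1.66 to 140 ± 11.5 CPM with nApoE3. Nupr1, Vldlr and Fgf21 were not tested. Gdf15, a secreted stress hormone, rose from 8.03 ± 0.8 to 150 ± 16.5 CPM with nApoE4 (log2 4.23) and from 13.1 ± 0.485 to 96.7 ± 5.33 CPM with nApoE3 (2.88), a difference of 1.34 (SE 0.13, edgeR adjusted p = 7.38e-06). Gadd45a, a growth arrest gene, rose from 3.99 ± 0.3 to 47.6 ± 3.32 CPM (3.58) and from 5.93 ± 0.78 to 21.5 ± 0.618 CPM (1.85), a difference of 1.72 (SE 0.14, edgeR adjusted p = 1.53e-06). Herpud1, which serves protein degradation at the endoplasmic reticulum, rose by 1.69 and 0.83, and Cebpb, a bZIP partner of ATF4, by 1.42 and 1.13.

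**Figure D4:**
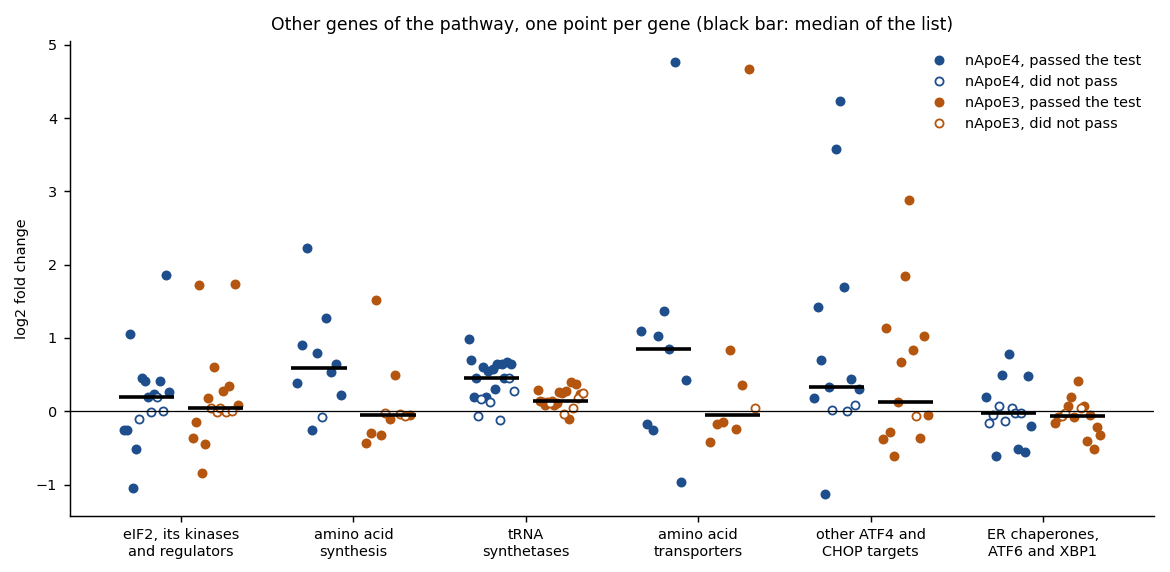
Log2 fold change (vertical axis) of the other pathway genes with nApoE4 (blue) and nApoE3 (orange), 1 point per gene and 1 column pair per list. Filled points passed the test, open points did not, and black bars are medians. For amino acid synthesis the medians are 0.59 and -0.05, for tRNA synthetases 0.45 and 0.14, and for ER chaperones -0.02 and -0.07.

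Chaperones of the endoplasmic reticulum and other targets of ATF6 and XBP1, the parallel branches of the unfolded protein response, moved both ways. Of 15 genes, 4 rose and 4 fell with nApoE4 (median log2 -0.02), 4 rose and 8 fell with nApoE3 (-0.07), and 11 did not differ past the threshold between the responses. Over all tested genes 28.6% rose and 28.6% fell with nApoE4, and 33.1% rose and 34.6% fell with nApoE3. For the difference of the responses, 14.4% were higher and 13.9% lower. The counts with nApoE4 and for the difference lie near these shares. Hspa5, the chaperone BiP, rose from 416 ± 21.2 to 713 ± 26.1 CPM with nApoE4 (log2 0.78) and from 715 ± 20.1 to 954 ± 18.7 CPM with nApoE3 (0.41). Sdf2l1 fell by 0.55 and 0.52, Pdia4 by 0.52 and 0.40, and Dnajb9, a target of XBP1, by 0.61 with nApoE4, with -0.02 (95% confidence interval -0.12 to 0.09) for nApoE3. In the untreated cells 9 of the 15 were higher in the nApoE3 controls and 4 lower (median log2 0.81), and the part of this difference in the responses was not tested.

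Within the Tribbles family Trib1, which directs C/EBP proteins to degradation, gave 0.02 with nApoE4 (95% confidence interval -0.15 to 0.19, edgeR adjusted p = 0.848), at 11.9 ± 0.566 and 12.0 ± 0.417 CPM. With nApoE3 it rose by 0.21 (edgeR adjusted p = 0.00247), a call lost on total counts alone (0.08, edgeR adjusted p = 0.167). Trib2 had 6 counts or fewer in every sample and was not tested. Of 5 genes for proteins known to bind Tribbles proteins (Rfwd2, Akt1, Akt2, Acaca and Acacb), 1 rose and 2 fell with nApoE4, and 1 rose and 3 fell with nApoE3. The gene that rose was Rfwd2 in both cases. Rfwd2, the ubiquitin ligase COP1, rose from 67.8 ± 3.19 to 155 ± 2.01 CPM with nApoE4 (log2 1.20) and from 87.7 ± 1.74 to 124 ± 2.97 CPM with nApoE3 (0.50), a difference of 0.69 (SE 0.066, edgeR adjusted p = 6.71e-06). Akt1, the kinase that TRIB3 can bind, fell by 0.28 and 0.16. Akt2 fell by 0.37 with nApoE3 and gave -0.04 with nApoE4, and the responses differed by 0.32 (edgeR adjusted p = 0.00118). Acacb, a fatty acid enzyme, fell by 0.75 with nApoE4 (edgeR adjusted p = 0.0114) from a level of 1.33 ± 0.168 CPM.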

How the data were processed

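RNA of BV2 cells was sequenced in 11 samples. Per the labels and methods, the authors trimmed reads with Trim Galore 0.5.0, checked them with FastQC 0.11.8, mapped them to GRCm38.p6 with HISAT2 2.1.0 and counted them on genes with HTSeq 0.11.0. They deposited raw counts per gene symbol, without normalization, and the annotation release, strand setting and overlap mode are not given in the sources used here. The tally rows, which name no gene, were left out of library sizes and tests (22.29 to 23.97% of all tallied reads).

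Groups came from the sample labels. Comparisons were nApoE4 and nApoE3, each against the controls taken for it, the difference of these responses (an interaction), and the control groups with each other. They were run in R 4.3.3 with edgeR 4.0.16 (filterByExpr, TMM, quasi-likelihood F test, Benjamini-Hochberg over all genes tested). Standard errors are approximate, as the log2 difference divided by the square root of F. Levels are CPM with TMM factors over all samples, and log2 CPM used a prior count of 2. The precision of a value is set by the spread between samples, and depth covers counting error only: 3 counts correspond to 0.043 to 0.0755 CPM. The scripts were tested on simulated counts.

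The members and lists were chosen with earlier results of these data known. From each other list the text names the 3 called genes with the largest change in each treatment comparison, and genes whose responses differ by over 1 on the log2 scale, except 1 gene that is not reported here. Gene positions and windows are from RefSeq. Alternatives were DESeq2 1.42.0, its size factors in edgeR, a filter of at least 1 count or of 10 counts per sample, a joint fit of all samples, a replicate block, leaving out each sample, and, added after the TMM factors were seen, total counts as the only scaling.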

Additional observations from a re-analysis of the deposited data

Results flagged for a closer look

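The responses to nApoE4 and nApoE3, each against its own controls, differed for 7 of the 9 members tested in the interaction test over 11 samples (edgeR, adjusted p under 0.05). Over all 15287 genes tested, 14.4% were called higher and 13.9% lower. The members were chosen with earlier results of these data known, so this count describes the list. On the log2 scale the response to nApoE4 minus that to nApoE3 was 1.61 for Ddit3, 1.54 for Chac1, 0.96 for Sesn2, 0.96 for Atf5, 0.65 for Atf4, 0.45 for Asns and -0.61 for Atf3. Ddit3, Chac1, Sesn2, Atf4 and Asns stood higher than the mean of their controls in every treated sample of both fragments, though with nApoE3 Chac1 did not pass the test and Ddit3 and Chac1 overlapped their controls. For Atf5 all nApoE4 samples lay above their controls and the nApoE3 samples at 62.6 and 58.3 CPM beside a control mean of 64.0 CPM. For Atf3 the controls of the nApoE3 experiment were lower (117 against 186 CPM) and the treated groups close (381 and 398 CPM). No group held enough samples to look for a sample far from the others.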

How the results depend on the processing

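Calls numbered 8145 with nApoE4, 10034 with nApoE3, 4331 for the difference of the responses and 9879 between the controls. Over all alternatives these ranged from 7036 to 9228, 8326 to 10378, 2307 to 5250 and 8949 to 10988, and without 1 replicate each from 7142 to 8827, 9121 to 9837, 3040 to 5250 and 8949 to 10988. Only the replicate block moved a count by over 1.5 times, to 2307 for the difference of the responses (1150 higher and 1157 lower), where it gave 7036, 9783 and 9376 in the other comparisons. Whether the shared replicate numbers pair the samples is not settled. Over 15287 genes, deviations of same-numbered samples from their group means correlated at -0.0386, -0.172 and -0.0624 in the nApoE4 experiment. There no sample correlated best with its own number. In the nApoE3 experiment the values were -0.00792 and -0.0126. Deviations from a group mean sum to 0, and those of the 2 nApoE3 samples mirror each other, so these values cannot exclude pairing. Under the block Atf4 between the controls was -0.24 (adjusted p = 0.0522), and with genes of at least 1 count Chac1 there was -0.41 (0.0551) and Atf5 with nApoE3 -0.10 (0.0344). Phgdh with nApoE3, near 0 except on total counts alone, turned sign to 0.00 with DESeq2, with its size factors and with all samples in one fit, to 0.01 with at least 10 counts in every sample and with the replicate block, and ranged from -0.03 to 0.02 without 1 replicate (0.01 without control replicate 3, 0.02 without nApoE3 replicate 2). Scaling by total counts alone moved the median of all genes by -0.09 with nApoE4 and -0.13 with nApoE3, and the share of calls that were higher from 49.9 to 39.9% and from 48.9 to 34.6%. For nApoE4, Atf4, Ddit3, Chac1, Asns, Sesn2, Atf3 and Atf5 kept direction and call in all 13 alternatives, and in all 17 for the difference of the responses. Among these genes the Asns difference, 0.40 to 0.54 on the log2 scale, came nearest to losing its call. Phgdh with nApoE4 was called with DESeq2 (0.0329) and with all samples in one fit (0.0185). Without nApoE4 control replicate 2, the difference of the responses was called for Psat1 (0.14, adjusted p = 0.0427) and Phgdh (0.29, 0.001), and on total counts alone it was 0.17 (0.0186) and 0.26 (0.0287). The causes were not tested.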
